A study of Mus musculus with 4 samples.

Results

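The cells described here are a small set of fibroblasts from uninjured mouse hearts that carried RNA of both Cilp and Postn. Cilp encodes cartilage intermediate layer protein, a matrix protein that binds TGF-beta, and Postn encodes periostin, a matrix protein of developing and injured heart tissue. A cell was a member when it held at least 2 Cilp UMIs (unique molecular identifiers, one per captured RNA molecule), at least 1 Postn UMI and at least 1 UMI of Meox1, Ltbp2 or Comp, no Wif1 UMI, and under 20 Pi16 UMIs per 10000. Members were sought in the 2 libraries made from uninjured hearts of Hic1 reporter mice, among barcodes that had 500 or more genes detected, 1000 or more UMIs and no more than 10% of UMIs from mitochondrial genes. The rule found 371 members among 13624 such cells, of 30454 kept cells in the whole series. Of these, 344 came from the citrine library (3.17% of 10838 cells, exact 95% interval 2.85 to 3.52) and 27 from the tdTomato library (0.969% of 2786 cells, 0.640 to 1.41). They were set against comparison cells of the same library, which held no Cilp and no Postn UMI and fewer than 2 of the mural markers Rgs5, Kcnj8, Vtn and Myh11. There were 8080 comparison cells in the citrine library and 2019 in the tdTomato library.

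All libraries were 10x Genomics droplet libraries of sorted heart cells. The first held tdTomato+ cells of mice labelled C57BL/6 (Hic1 CreERT2 tdTomato), 7 days after ligation of the left anterior descending coronary artery (LAD), a surgical model of infarction. The second held tdTomato+ cells of undamaged hearts of the same strain, and the third citrine+ cells of undamaged C57BL/6 (Hic1 Citrine) hearts. The fourth mixed undamaged and ligated hearts of the B6.129S4-Pdgfratm11(EGFP)Sor/J strain, sorted for PDGFRa H2BEGFP. Each tdTomato library pooled 3 hearts that cannot be separated, the citrine library held 3 hearts marked by hashtags (cell-surface barcodes added before pooling), and the PDGFRa library held 4 hashed hearts. Hic1 is a transcriptional repressor expressed by quiescent mesenchymal progenitors, and every cell of the first 3 libraries was sorted through a Hic1 reporter. A CreERT2 reporter marks cells that expressed Hic1 when the recombinase was active, whatever they express later. The labels give neither the age of the animals nor the time of induction. UMI totals over all deposited barcodes were 9885698 in the undamaged tdTomato library and 97467582 in the citrine library.

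Cardiac fibroblasts make and turn over the collagen network between heart muscle cells. In uninjured tissue most of them are quiescent and express Tcf21, Pdgfra and lipid- and complement-related genes. After injury, fibroblasts switch on periostin, contractile proteins and matrix crosslinkers under signals that include TGF-beta, and late in scars some take on genes otherwise typical of cartilage and tendon, Cilp and Comp among them.

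Members carried more UMIs than the cells they were compared with. The median was 12808 UMIs per member and 7509.5 per comparison cell in the citrine library, and 4734 and 3518 in the tdTomato library, while the median mitochondrial share was 3.29% and 3.10% in the citrine library. Since the rule asks for several UMIs, the share of members depended on depth. With citrine cells cut into 4 groups of like size by UMIs, from shallow to deep, the share was 0.738%, 1.73%, 2.66% and 7.56%. Cells with at least 2000 UMIs were then thinned to 2000, which left out 229 citrine and 419 tdTomato cells. Of the remaining 10609 citrine cells 0.820% passed (0.657 to 1.01), and of 2367 tdTomato cells 0.760% (0.451 to 1.20). The gap between the undamaged libraries was thus not detectable at equal depth among these cells. By hashtag, 177 of the 344 citrine members could be assigned to 1 heart: 42 of 948 assigned cells in heart 1 (4.43%), 67 of 2756 in heart 2 (2.43%) and 68 of 1770 in heart 3 (3.84%). All 3 hearts held members. The citrine and tdTomato libraries shared 1 kept barcode, and 4 citrine members had a barcode also kept in the PDGFRa library. No doublet caller was run.

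The genes of the rule are given as a description, without a test. Members had a median of 8 Cilp UMIs (range 2 to 113) and 10 Postn UMIs (1 to 309) in the citrine library, and of 6 Cilp UMIs and 5 Postn UMIs in the tdTomato library. Postn reached 1937, 1556 and 1462 CPM (UMIs per 1000000 UMIs summed over the class) in members of citrine hearts 1, 2 and 3, and Cilp reached 948, 1045 and 1021 CPM. Of the 344 citrine members, 330 held a UMI of Meox1, a homeobox transcription factor, 229 one of Ltbp2, a protein of elastic microfibrils, and 81 one of Comp, a matrix protein of cartilage and tendon. In the tdTomato library the counts were 24, 8 and 13 of 27. Comp was thus seen in 48.2% of tdTomato members (28.7 to 68.0) and in 23.5% of citrine members (19.2 to 28.4), although tdTomato cells were shallower. Pi16 is a marker of adventitial-type fibroblasts, and citrine members held it at 1011 CPM, with 80 of 344 at 15 to 20 UMIs per 10000, just inside the limit. A further 183 citrine cells met every condition but that one. Cst6 stood at 156 CPM in members, 258 CPM in these Pi16-high cells and 18.4 CPM in comparison cells, and Thbs4 at 187, 120 and 0.358 CPM in the same order. Another 280 lacked only Postn, 86 had exactly 1 Cilp UMI and 17 lacked Meox1, Ltbp2 and Comp. Cells with exactly 2 Cilp UMIs, just inside the rule, held Thbs4 at 10.4 CPM, as did cells with exactly 1 at 10.2 CPM, far below the members as a whole.

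The label was set beside fibroblast markers and Cst6, a cysteine protease inhibitor listed as a marker of these cells but outside the rule. The lists were chosen with earlier results of these data known, so these values describe the members and are no independent check. A Cst6 UMI was seen in 43.9% of citrine members (38.6 to 49.3) against 7.69% of comparison cells (7.11 to 8.29), and in 37.0% of tdTomato members (19.4 to 57.6) against 4.51% (3.64 to 5.50). Cst6 had 119, 235 and 162 CPM in members of the 3 hearts and 14.1, 18.2 and 20.03 CPM in comparison cells. The classes did not overlap. A UMI of Pdgfra, the receptor that marks cardiac fibroblasts, was seen in 89.5% of citrine members and 84.0% of comparison cells. The 7 fibroblast markers summed to between 21208 and 23708 CPM in members and between 27389 and 29713 CPM in comparison cells. In the test described below, Col1a1 was higher in members, and Dpep1, Tcf21 and Dcn were lower. Neutrophil, epicardial and erythroid markers were all at 0 in members assigned to hearts.

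To compare the remaining genes, UMIs were summed per citrine heart and class, and members were tested against comparison cells of the same heart with edgeR's quasi-likelihood test. Of 10343 genes tested, 833 had a Benjamini-Hochberg adjusted p under 0.05 (8.05%). Of these, 477 were higher (4.61%) and 356 lower (3.44%) in members, 183 and 147 of them by more than 2-fold, and the median log2 fold change over all genes was -0.00. Genes whose levels did not overlap between the classes made up 25.6% of those tested. The genes named below come from the 14 highest and 14 lowest at 50 CPM or more that moved in the same direction in all 3 hearts and in the tdTomato library. Without heart 2 the counts were 207 higher and 182 lower, and with comparison cells drawn to match the members' UMIs, 336 higher and 296 lower of 7749 genes. The members had been chosen on other genes of these same cells, so the test speaks of the spread between 3 hearts and not of a new sample of such cells.

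**Figure D1:**
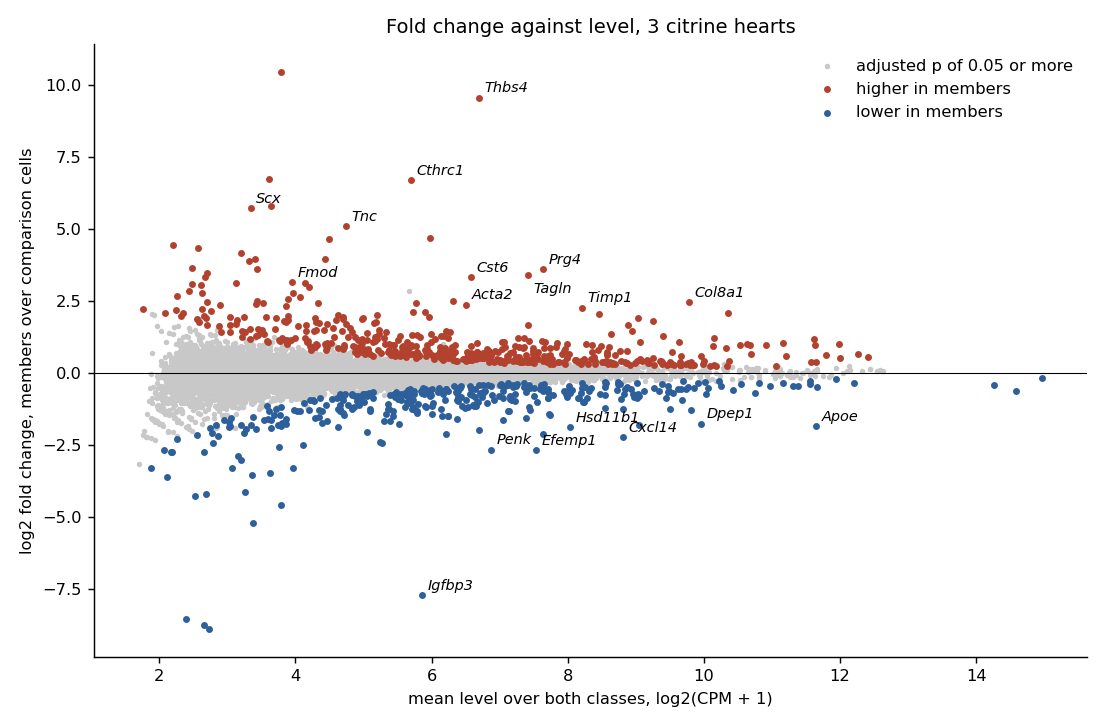
Log2 fold change of members over comparison cells (vertical axis) against the mean level over both classes as log2(CPM + 1), for the 10343 genes tested in 3 citrine hearts. Red and blue points are the 477 higher and 356 lower genes. Thbs4 stands highest among the labelled genes and Igfbp3 lowest.

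Among the 24 gene lists, that of the injury response had the highest median. Of the 19 listed genes of fibroblast activation and myofibroblasts, 17 were tested, 13 were higher and none was lower, against 4.61% of all genes higher. Their median log2 fold change was 2.28. With comparison cells matched on UMIs, 11 of 15 were higher and none was lower. Thbs4, a thrombospondin of tendon and injured muscle, held 185, 120 and 308 CPM in members of hearts 1, 2 and 3, and 0.409, 0.252 and 0.103 CPM in comparison cells. The groups were far apart, with a log2 fold change of 9.57 (SE 0.26, edgeR adjusted p = 6.93e-13). Against all other non-mural cells, Cilp- or Postn-bearing ones included, the log2 fold change was 5.24 for Thbs4, 2.25 for Tagln and 2.15 for Prg4, and each of these passed. It was carried by few cells: 58 of 344 citrine members held a Thbs4 UMI (16.9%), against 15 of 8080 comparison cells (0.186%). Cthrc1, a secreted protein of fibrotic scars, had 3.67, 143 and 156 CPM in members and 1.23, 0.378 and 2.17 CPM in comparison cells. Heart 1 was thus close to the comparison cells while the other two were far above, and 19 members carried all of its UMIs, 81.5% of them in 5 cells. Its log2 fold change was 6.71 (SE 0.46, edgeR adjusted p = 5.32e-08). Tnc, encoding the adhesion-modulating matrix protein tenascin C, had 67.8, 32.0 and 51.5 CPM in members against 1.43, 1.26 and 1.34 CPM, and rose by 5.10 on the log2 scale (SE 0.30). Without its single richest cell in each heart, Tnc stood at 11.6, 5.74 and 37.1 CPM, still above every comparison value.

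Several of the 14 highest genes encode contractile and cytoskeletal proteins. Tagln, which encodes the actin-binding protein transgelin, had 158, 258 and 516 CPM in members and 30.5, 23.2 and 34.9 CPM in comparison cells (log2 fold change 3.39, SE 0.19). Acta2, encoding smooth muscle actin, had 78.8, 164 and 206 CPM in members and 34.2, 22.8 and 34.7 CPM in comparison cells (2.38, SE 0.21). A UMI of Acta2 was seen in 36.9% of citrine members and 9.02% of comparison cells, and in 5 of 27 tdTomato members, where 80% of its UMIs lay in 1 cell. No overlap between the classes was seen for either gene. The actin regulators Mical2 and Actn1 and the focal adhesion protein Fhl2 had log2 fold changes of 2.52, 2.11 and 2.45, and the tubulin Tubb2b had 2.11. The 7 smooth muscle markers summed to between 249 and 727 CPM in members and between 56.8 and 79.8 CPM in comparison cells, and Acta2 and Tagln were the markers called higher. Myh11, Cnn1 and Myocd, which define smooth muscle cells, were at 0 in the members of all 3 hearts. The 7 pericyte markers summed to between 84.3 and 160 CPM in members and between 226 and 232 CPM in comparison cells. Of these, 3 could be tested and Abcc9 and Ndufa4l2 were lower, though neither was called without heart 2.

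**Figure D2:**
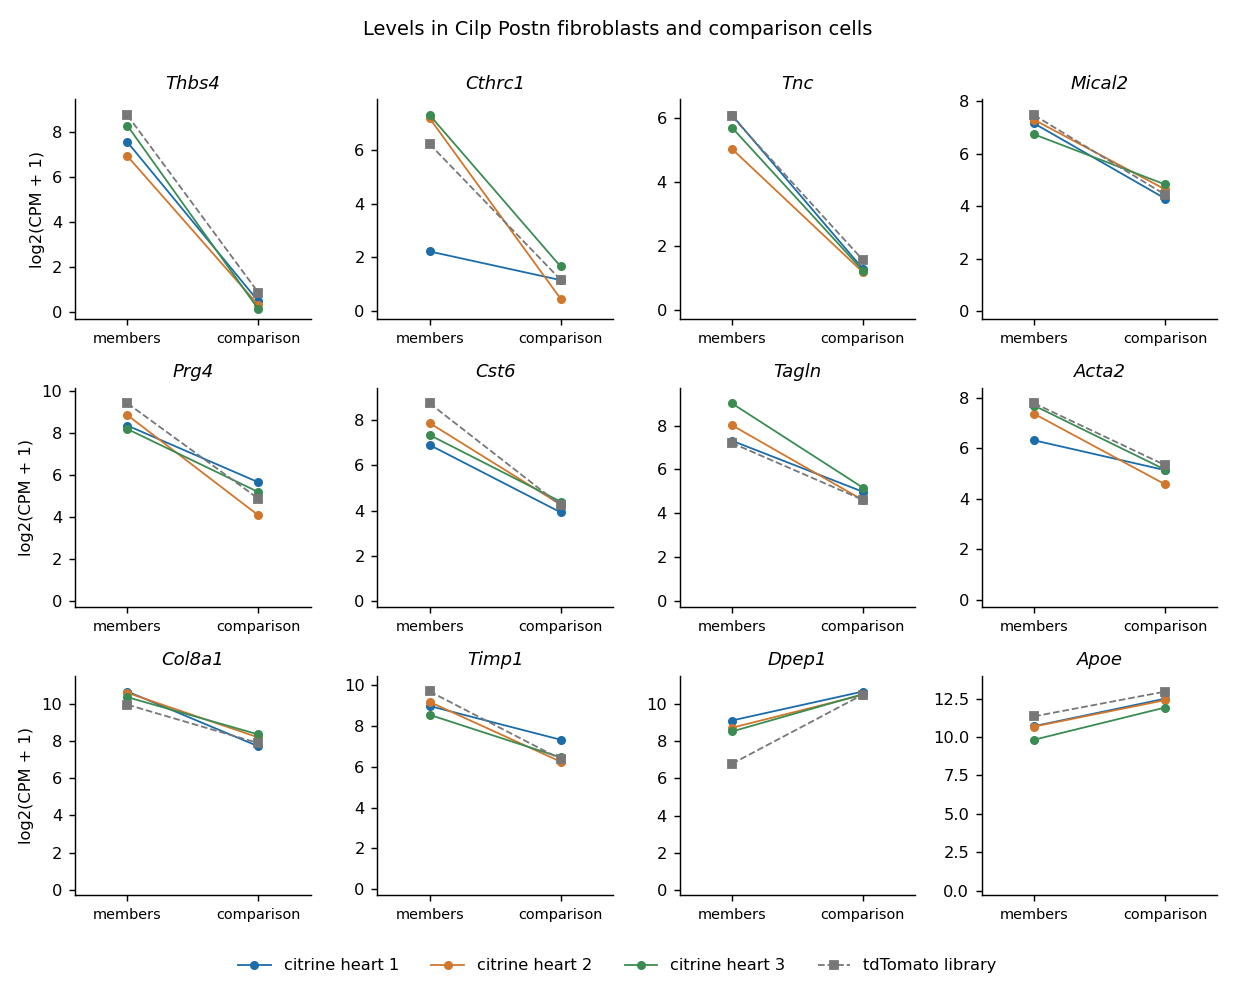
Levels as log2(CPM + 1) of 12 named genes in members (left) and comparison cells (right) of each citrine heart (circles) and of the tdTomato library (squares). Dpep1 and Apoe were lower in members and the others higher. Cthrc1 was near the comparison level in heart 1.

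Promoters of several of these genes are shown because they mark the members or rose together. The letters come from RefSeq on GRCm38.p6, run from 250 bases before the annotated start to 50 bases after it, and are given 5′ to 3′ on the strand of the gene. Capitals mark matches, on either strand, to GGAATG, the core bound by TEAD factors, and to TATAAA, a form of the TATA box. The lines are Cilp at chr9:65264930-65265229 (plus strand), the proximal Postn start at chr3:54360857-54361156 (plus), Thbs4 at chr13:92794769-92795068 (minus) and Acta2 at chr19:34255324-34255623 (minus).
Cilp: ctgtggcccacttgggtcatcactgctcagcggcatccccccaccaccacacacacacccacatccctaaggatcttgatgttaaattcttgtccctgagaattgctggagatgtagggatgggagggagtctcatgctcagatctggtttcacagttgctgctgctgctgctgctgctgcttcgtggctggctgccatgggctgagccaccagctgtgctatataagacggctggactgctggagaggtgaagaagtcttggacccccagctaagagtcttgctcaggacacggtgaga
Postn: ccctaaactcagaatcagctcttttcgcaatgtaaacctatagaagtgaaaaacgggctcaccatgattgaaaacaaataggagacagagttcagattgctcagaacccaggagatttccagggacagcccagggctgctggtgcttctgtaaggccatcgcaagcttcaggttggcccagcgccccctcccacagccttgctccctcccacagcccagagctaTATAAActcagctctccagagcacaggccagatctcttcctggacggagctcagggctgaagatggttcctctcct
Thbs4: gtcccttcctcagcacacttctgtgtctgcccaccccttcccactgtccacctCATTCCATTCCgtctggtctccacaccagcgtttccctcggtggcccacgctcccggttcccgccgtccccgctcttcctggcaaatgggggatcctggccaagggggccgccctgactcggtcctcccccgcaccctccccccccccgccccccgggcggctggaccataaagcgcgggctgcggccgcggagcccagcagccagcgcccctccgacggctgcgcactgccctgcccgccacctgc
Acta2: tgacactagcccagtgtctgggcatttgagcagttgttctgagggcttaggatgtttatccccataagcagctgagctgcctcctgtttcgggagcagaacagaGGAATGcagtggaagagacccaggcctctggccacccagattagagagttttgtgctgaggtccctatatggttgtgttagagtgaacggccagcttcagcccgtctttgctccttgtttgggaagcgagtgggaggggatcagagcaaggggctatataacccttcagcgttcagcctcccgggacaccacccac
Thbs4 held 2 overlapping TEAD matches, at -197 and -192 from the start, Acta2 held 1 at -146, and the Postn start held a TATA match at -26. Neither GGAATG nor TATAAA was found in the Cilp window, and other forms of these motifs were not searched in any window. Of the 5 genes that defined members and the 14 highest, 11 had an entry, and 3 of these 11 held GGAATG, against 14.7% of 32851 mouse promoters. TATAAA was found in 3 of 11 against 13.6% of promoters, while TGANTCA (AP-1) and TAATTA (homeobox) were found in 0 of 11, against 7.81% and 5.29%. A gene counted when any of its starts held the letters, whereas the percentages count single promoters, so the units differ. The 3 genes with TATAAA (Postn, Tnc and Fhl2) each had more than 1 start. These are matches of letters and no evidence of binding.

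Among the matrix genes, collagens and microfibril proteins were higher at modest folds in the citrine hearts. Of 16 tested genes for fibrillar collagens and elastic matrix (18 listed), 11 were higher and 1 was lower, against 4.61% and 3.44% of all genes. Their median log2 fold change was 0.84. In the tdTomato library the median over 17 genes was only 0.14, with 4 over 2-fold higher and 3 over 2-fold lower. With citrine comparison cells matched on UMIs, 9 of 16 were higher and 2 lower, with a median of 0.50. Col3a1, a fibrillar collagen of compliant tissue, had 4287, 4688 and 4161 CPM in members and 1926, 1848 and 2018 CPM in comparison cells (1.20, SE 0.07). Every member value was above 2-fold the comparison value of its heart. Col1a1, the main collagen of scars, rose by 1.01 (SE 0.09) and Mfap4, a microfibril-associated protein, by 1.90 (SE 0.12). The exception was the microfibril protein Fbln1, lower by 0.92 on the log2 scale. Of 9 tested non-fibrillar collagens (11 listed), 6 were higher and 1 was lower. Col8a1, a short-chain collagen, was the most abundant of the 14 highest genes, with 1606, 1531 and 1299 CPM in members and 208, 289 and 324 CPM in comparison cells (2.46, SE 0.12). A Col8a1 UMI was seen in 340 of 344 citrine members. Col12a1, a collagen on the surface of fibrils in tendon, rose by 3.14, and Col6a6 fell to 10.997, 9.92 and 14.2 CPM, against 59.8, 73.1 and 53.9 CPM. For basement membrane, 5 of 13 genes were higher, among them the type IV collagens Col4a1, Col4a2, Col4a5 and Col4a6, and 2 were lower. Matched on UMIs, 2 were higher and 4 lower, and without heart 2, 1 and 2.

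Enzymes that crosslink collagen moved with it, though less evenly between hearts. Of 14 tested genes (17 listed), 6 were higher and none was lower, and without heart 2, 2 were higher. Lox, lysyl oxidase, had 40.3, 110 and 41.2 CPM in members and 22.3, 26.4 and 31.6 CPM in comparison cells (1.30, SE 0.25, edgeR adjusted p = 0.00247). The value of heart 2 set this fold. Lox was at 0.59 without heart 2 and at -0.39 without the top 5% of cells by UMIs, neither of which passed. Loxl2 and Plod2 rose by 0.89 and 0.78. Of 10 tested small leucine-rich proteoglycans, which space collagen fibrils, Fmod, Aspn and Bgn were higher (3.16, 1.80 and 0.98) and Dcn was lower (-0.42). Among 19 tested matricellular proteins 9 were higher and 3 lower (10 and 5 without heart 3). Ctgf rose by 2.08 to 1519, 2031 and 2766 CPM, against 474, 372 and 673 CPM, and Sparc by 0.99, whereas Thbs2 fell by 1.64. Fn1, fibronectin, had 148, 130 and 147 CPM in members and 99.9, 59.97 and 100.3 CPM in comparison cells (0.77, SE 0.13), but 0.21 against comparison cells matched on UMIs, which did not pass. Proteases and their inhibitors ran the other way, with 3 of 20 higher and 9 lower. Timp1, an inhibitor of metalloproteinases, had 500, 574 and 371 CPM in members and 159, 74.9 and 86.8 CPM in comparison cells (2.28, SE 0.17), while the serine protease Htra1 fell by 1.42.

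Genes of cartilage and tendon were higher as a list, some of them in few members. Of 25 listed, 13 were tested, 8 were higher and none was lower, with a median of 0.76. Prg4, encoding lubricin, the lubricant of joints, had 330, 465 and 293 CPM in members and 49.7, 16.02 and 35.7 CPM in comparison cells (3.61, SE 0.27). A Prg4 UMI was seen in 146 of 344 citrine members. Fmod, fibromodulin, had 23.8, 15.4 and 37.3 CPM in members and 5.53, 1.20 and 3.10 CPM in comparison cells (3.16, SE 0.37), in 32 members. Scx, the transcription factor scleraxis of tendon cells, had 7.33, 14.3 and 32.2 CPM in members and 0.409, 0.189 and 0.516 CPM in comparison cells (5.73, SE 0.49), in 21 members. All 64 UMIs of the tendon gene Tnmd came from 3 citrine members. Sox9, which drives cartilage differentiation, was 0.47 higher (edgeR adjusted p = 0.00721) and 0.39 against comparison cells matched on UMIs, where it did not pass. The 6 valve and tendon markers, which include Thbs4, Scx, Tnmd and Fmod, summed to between 192 and 436 CPM in members and between 1.77 and 6.35 CPM in comparison cells, with Mkx at 0. Whether valve or tendon-like cells among the members carry these genes was not tested.

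**Figure D3:**
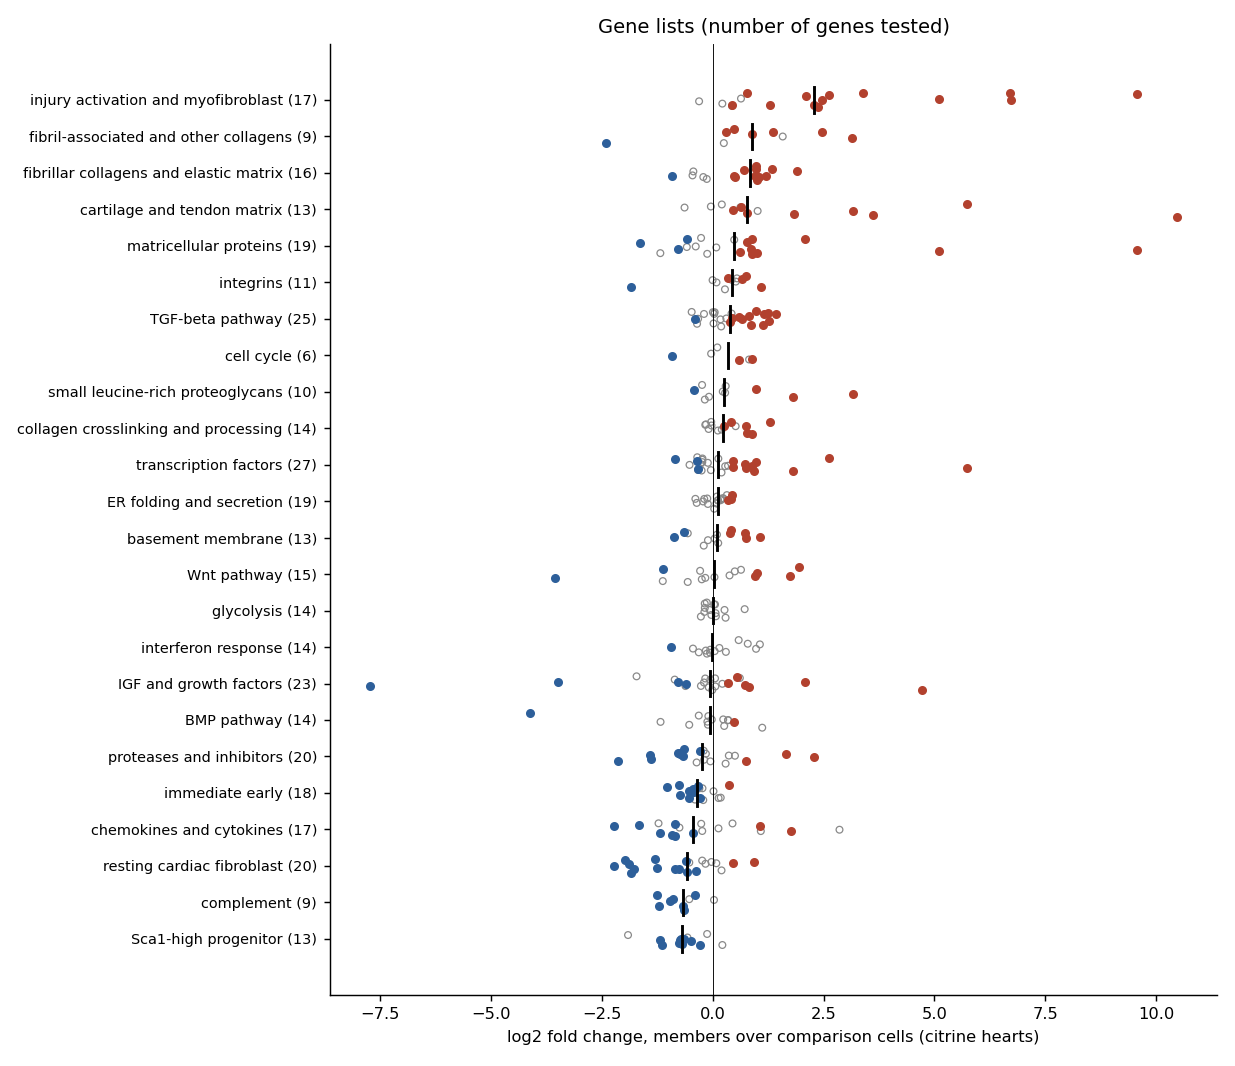
Log2 fold change of members over comparison cells for every tested gene of 24 lists, ordered by the list's median (black bar), with the number of genes tested in brackets. Filled red and blue points passed the test as higher and lower. The activation list stands at the top with a median of 2.28 and the list of Sca1-high progenitors at the bottom with -0.69.

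In the TGF-beta pathway, 12 of 25 tested genes were higher and 1 was lower, with a median of 0.39. TGF-beta ligands are secreted bound to latency proteins and released by integrins before they act on the receptors. Tgfb1 had 82.5, 129 and 120 CPM in members and 36.2, 40.5 and 49.8 CPM in comparison cells (1.43, SE 0.14, edgeR adjusted p = 3.39e-06), and the classes did not overlap. Tgfb3 had 89.8, 86.0 and 59.2 CPM against 29.7, 39.5 and 29.6 CPM (1.24, SE 0.16). Tgfb2 had 84.3, 76.1 and 66.9 CPM against 65.5, 84.4 and 73.7 CPM and did not pass (0.02, SE 0.14). Of the latency proteins, Ltbp3 and Ltbp4 were higher (0.59 and 0.42) and Ltbp1 lower (-0.39). The receptors Tgfbr1, Tgfbr2 and Tgfbr3 did not pass, at 0.18, 0.03 and -0.20. Tgfbi, which TGF-beta induces, rose by 0.86, and the feedback regulators Skil and Ski rose by 0.83 and 0.39. Without heart 2, 7 of the 25 genes were higher.

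Other signalling genes moved one by one. Igfbp3, a carrier of insulin-like growth factors, led the 14 lowest genes, with 1.83, 0 and 0 CPM in members and 220, 80.5 and 38.5 CPM in comparison cells (-7.72, SE 0.40, edgeR adjusted p = 2.38e-09). A single UMI lies behind the value of members assigned to a heart. Their ratio to comparison cells over the 3 hearts was 0.00501, with an exact 95% counting interval of 0.000127 to 0.0279. All 344 citrine members, unassigned ones included, held 25 Igfbp3 UMIs (5.30 CPM), so that interval does not cover the unassigned members. With a hashtag limit of 60% the log2 fold change was -3.92, still past the threshold. Igf1 rose by 0.73. Of 15 tested Wnt pathway genes, 4 were higher (Dkk3, Nkd2, Frzb and Fzd2, by 0.95 to 1.94) and 2 lower (Rspo1 and Wnt11, at -3.55 and -1.12). Dkk3, Nkd2 and Frzb encode modulators of Wnt signalling, Rspo1 an agonist. In the BMP pathway, 1 of 14 genes was higher and 1 lower, the activin antagonist Fst at -4.13. Among 27 tested transcription factors 10 were higher and 3 lower, but 7 and 6 without heart 1, 6 and 1 without heart 2, and 6 and 5 of 24 matched on UMIs. Runx1 had 29.3, 17.6 and 34.7 CPM in members and 5.53, 4.86 and 2.89 CPM in comparison cells (2.63, SE 0.35), while Runx2, with 18.3, 4.41 and 10.3 CPM against 6.96, 9.46 and 8.05 CPM, overlapped and did not pass. Prrx2 and Sox4 rose by 1.81 and 0.97.

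Genes typical of resting heart fibroblasts were lower. Of 20 listed and tested, 12 were lower and 2 higher, against 3.44% of all genes lower, and their median was -0.59. Dpep1, a membrane dipeptidase, fell to 557, 424 and 369 CPM in members, against 1647, 1453 and 1490 CPM in comparison cells (-1.76, SE 0.09). Apoe, the lipid carrier apolipoprotein E, fell to 1666, 1636 and 903 CPM, against 5752, 5382 and 3856 CPM (-1.84, SE 0.08). Neither gene overlapped between classes. Hsd11b1, which regenerates active glucocorticoid, was lower by 1.88 on the log2 scale, the methyltransferase Inmt by 1.98, the chemokine Cxcl14 by 2.22 and the lipoprotein lipase gene Lpl by 1.26. Tcf21, the transcription factor of the cardiac fibroblast lineage, fell by a smaller amount to 365, 350 and 371 CPM, against 748, 622 and 637 CPM (-0.86, SE 0.09; -0.44 against comparison cells matched on UMIs), and a Tcf21 UMI was still seen in 91.0% of citrine members. The exceptions were the mesodermal factors Meox2 and Tbx20, higher by 0.93 and 0.45. Other genes among the 14 lowest were Efemp1, a fibulin, Penk, an opioid precursor, the neuropeptide gene Nmb, the haem oxygenase gene Hmox1, Ggt5, the lipolysis inhibitor gene G0s2 and Tnfsf9, at -1.78 to -2.68.

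Pdgfra did not pass, with 334, 352 and 270 CPM in members and 330, 407 and 346 CPM in comparison cells (-0.17, SE 0.09). Hic1 had 313, 207 and 255 CPM in members and 354, 307 and 334 CPM in comparison cells, overlapping between classes. Its call (-0.36, SE 0.09, edgeR adjusted p = 0.0241) was lost against comparison cells matched on UMIs, at -0.06. Ly6a, which encodes Sca1, had 1201, 630 and 985 CPM against 1232, 928 and 1251 CPM (-0.30, edgeR adjusted p = 0.0467), and was at 0.16 against comparison cells held to the same Pi16 and Wif1 limits. Of 13 tested genes of Sca1-high progenitors, 9 were lower and none higher. The rule limits Pi16 in members but not in comparison cells, and with both held to the limits 2 were lower and 2 higher.

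Complement and immediate early genes were lower as well. Of 9 tested complement genes 7 were lower and none was higher, with a median of -0.68. C3, the central complement component, had 471, 457 and 337 CPM in members and 1271, 924 and 889 CPM in comparison cells (-1.26, SE 0.09). Of 17 tested chemokines and cytokines 7 were lower and 2 higher. Ccl11 and Cxcl12 were lower by 1.66 and 0.92 on the log2 scale, and the monocyte attractants Ccl2 and Ccl8 higher by 1.06 and 1.77. Ccl2 had 350, 635 and 1190 CPM in members and 466, 246 and 323 CPM in comparison cells, which overlapped, and no UMI in tdTomato members. Among 18 immediate early genes, which dissociation of tissue induces in many cells, 10 were lower and 1 was higher, with a median of -0.36. Atf3 had 202, 206 and 176 CPM in members and 408, 488 and 314 CPM in comparison cells (-1.02, SE 0.10). Without heart 2, 4 of the 18 were lower, and 13 without heart 3.

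Several processes showed few or no calls. In the citrine hearts none of 14 glycolysis genes passed, 3 of 19 genes of protein folding and secretion were higher, and 1 of 14 interferon genes was lower. The tdTomato library, which was not tested, differed for interferon genes. There 7 of 15 were over 2-fold higher and 1 over 2-fold lower, with a median of 0.97, while 22.3% of all genes were over 2-fold higher. Without heart 2 no folding gene was higher, and without heart 3, 4 interferon genes were lower, with a median of -0.57 against -0.01 in all hearts. Of 6 tested cell cycle genes, the cyclins Ccnd1 and Ccnd2 were higher (0.88 and 0.59) and the inhibitor Cdkn1c was lower (-0.92). Ccnd1 was at 0.52 and did not pass against comparison cells matched on UMIs. Mki67, a marker of dividing cells, was below the filter on low counts. It was seen in 7 of 344 citrine members (2.03%) and 17 of 8080 comparison cells (0.210%), at median depths of 12808 and 7509.5 UMIs, and 5 cells held 97.8% of the members' Mki67 UMIs. Cxcl10 and the interferon gene Rsad2 were also concentrated, with 98.6% and 97.5% of their UMIs in 5 members.

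The tdTomato library, with 27 members and 136513 UMIs in them, gave a second set of values without replicates or a test. Of the 833 genes called in the citrine hearts, 795 had at least 20 UMIs over both tdTomato classes. Of 444 called higher, 369 (83.1%) had a higher CPM in tdTomato members, and of 351 called lower, 327 (93.2%) had a lower one. Over all 10022 genes tested in citrine hearts with such counts, 45.0% were higher and 55.0% lower. In that library 22.3% of 10731 genes were over 2-fold higher and 4.78% over 2-fold lower, a split that changed with the pseudocount of 1 UMI. Thbs4 had 425 CPM in members and 0.835 CPM in comparison cells, Prg4 689 and 28.5 CPM, and Col8a1 982 and 234 CPM. Fmod was at 337 and 16.4 CPM, with 69.6% of the members' UMIs in 1 cell. Dpep1 was at 110 and 1469 CPM, and the exact 95% interval of their ratio was 0.0419 to 0.123. Hsd11b1, Inmt, Nmb and Cxcl14 had no UMI in members, against 410, 317, 131 and 124 CPM in comparison cells. No Hic1 UMI was seen in the 27 members, at a median of 4734 UMIs per cell, against 7.92% of comparison cells, at a median of 3518. The exact 95% interval of the members' share, 0 to 12.8%, holds the comparison value, so no difference was detectable. It limits cells with a UMI and not cells that express the gene. Lox stood against the citrine hearts, with 1 UMI in members.

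Members were also compared with Wif1-positive fibroblasts of the same hearts. Wif1, which the rule requires to be 0 in members, encodes a secreted Wnt inhibitor. Only 18 Wif1-positive cells, 6, 4 and 8 per heart, with 195113 UMIs, stood against 177 members with 2229587. Both comparisons use the same member sums, so they are not independent. Of 4630 genes tested, 232 passed (5.01%), 136 higher (2.94%) and 96 lower (2.07%) in members. By more than 2-fold, 131 were higher (2.83%) and 95 lower (2.05%), and 25.7% of the genes tested did not overlap between the classes. Leaving out heart 3 reduced these to 16 and 27, and leaving out heart 2 gave 78 and 75. Thbs4 had 185, 120 and 308 CPM in members and 0, 18.0 and 0 CPM in Wif1-positive cells (log2 fold change 5.31, SE 0.79, edgeR adjusted p = 4.59e-04). Tgfb1 had 82.5, 129 and 120 CPM against 18.7, 18.0 and 11.6 CPM (2.83, SE 0.64), and Cst6 119, 235 and 162 CPM against 56.2, 0 and 0 CPM (3.40, SE 0.74). The classes did not overlap for these 3 genes, but between 1 and 3 UMIs in all stood behind each Wif1-positive value. The ratios over the 3 hearts were 39.3 for Thbs4 (exact 95% counting interval 7.02 to 1555), 7.44 for Tgfb1 (2.52 to 36.3) and 11.8 for Cst6 (4.00 to 57.4). Each call was lost without heart 3, and those of Tgfb1 and Cst6 also without heart 2.

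The 8 genes ranked highest over Wif1-positive cells had no UMI there at all. They passed the filter on low counts through the members alone, and their rank follows from these zeros. A fold is therefore only a counting bound, set by 3 counts over the 18 cells. On that basis the interferon-inducible gene Ifi203 was at least 6.86-fold higher in members, Tubb2b at least 6.18-fold, Mnda at least 4.73-fold, the C1q-related C1qtnf6 at least 4.11-fold, Lox at least 4.49-fold, Prex2 at least 3.85-fold and Nrxn2 at least 3.76-fold. The uncharacterised 6030408B16Rik was at least 6.71-fold higher. Few tdTomato UMIs stood behind these genes, and some values fell below the bounds: C1qtnf6 had 44.0 CPM in members and 34.2 CPM in Wif1-positive cells (exact 95% interval of the ratio 0.384 to 3.90), Nrxn2 21.98 and 13.7 CPM, 6030408B16Rik 14.7 and 10.3 CPM, and Lox 1 UMI in each class. On the lower side Ucma, a cartilage matrix protein, had no UMI in members and 337, 72.0 and 34.8 CPM in Wif1-positive cells. With 3 counts set over the members it was at least 95.2-fold lower. That bound leaves out the counting error of the 25 Wif1-positive UMIs, 18 of them in heart 1. In the tdTomato library Ucma had 0 UMIs in members and 20 in Wif1-positive cells (exact 95% interval of the ratio 0 to 0.434). Atp1b1, a sodium pump subunit, had 7.33, 2.20 and 0 CPM in members and 262, 162 and 279 CPM in Wif1-positive cells (-6.26, SE 0.59). S100b, a calcium-binding protein, fell to 1.83, 8.82 and 0 CPM, against 262, 162 and 128 CPM. Paqr6, Rapgef4, Ahsg and Mrap were lower by 4.44 to 5.26 on the log2 scale. They held 22, 21, 39 and 13 UMIs in Wif1-positive cells, and 35 of those of Ahsg came from heart 3. In tdTomato Wif1-positive cells the same genes held 32, 5, 3 and 12 UMIs, and members held none. There the exact 95% intervals of the ratio spanned 1 for Rapgef4 (0 to 2.34) and Ahsg (0 to 5.18). In the citrine hearts Cadm1 had 2 UMIs in members, a ratio of 0.00921 (exact 95% counting interval 0.00104 to 0.0382). Prg4 was lower than in Wif1-positive cells, with 330, 465 and 293 CPM against 3388, 2592 and 290 CPM (-2.11, SE 0.45), a call lost without heart 1 or heart 2. The transcription factors Scx, Sox9 and Runx1 did not pass, nor did Fmod. Of 10 tested cartilage and tendon genes none was higher and 4 were lower (Cytl1, 1500015O10Rik, Sox6 and Prg4). Of 16 fibrillar and elastic matrix genes 10 were higher and 1 was lower, and of 11 basement membrane genes 8 were higher and none was lower. Of all genes tested, 2.94% were higher and 2.07% lower. Without heart 3 only 16 genes in all were higher, so most of these list calls were lost there, and the lists were not counted with a heart left out. Of the 232 calls, 167 had enough UMIs in the tdTomato library, where 69 cells were Wif1-positive. There 92 of 100 genes called higher had a higher CPM in members, and 62 of 67 called lower had a lower one, against 52.8% higher and 47.2% lower over 2822 genes.

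Members differed among themselves, and the split examined was by Comp. The 81 citrine members with a Comp UMI and the 263 without had median depths of 12025 and 13047 UMIs. Since this split was drawn on a gene of the rule within the members, it is described without a test, and the genes were picked after their values were seen. Fmod had 99.0, 61.0 and 160 CPM in Comp-positive members of hearts 1, 2 and 3, and 2.36, 1.44 and 4.89 CPM in Comp-negative members. Thbs4 had 710, 338 and 1178 CPM in Comp-positive and 35.3, 53.3 and 76.5 CPM in Comp-negative members. Both were higher in Comp-positive members of every heart. Angptl7, a secreted protein of the angiopoietin-like family, had 90.8, 127 and 313 CPM against 7.07, 37.5 and 14.7 CPM, and 1500015O10Rik, known as Ecrg4, had 239, 89.1 and 67.5 CPM against 2.36, 8.65 and 9.77 CPM. Not every gene was shared between hearts. Cytl1, a cartilage cytokine-like protein, came mostly from heart 2, with 0, 858 and 18.4 CPM in Comp-positive and 16.5, 66.3 and 8.14 CPM in Comp-negative members. Spp1, osteopontin, was at 0, 347 and 393 CPM against 0, 1.44 and 1.63 CPM, and 12 cells carried it. Cxcl14 was lower in Comp-positive members of hearts 1 and 2, with 0 and 9.38 CPM against 344 and 180 CPM, but not of heart 3, with 123 against 78.2 CPM. Over the whole library, Rsad2, Cxcl10 and Dio2 were 9.67-, 8.45- and 7.34-fold higher in Comp-positive members. Only 2 Comp-positive members held Rsad2, with 96.6% of its UMIs in 1 cell, and 3 held Cxcl10, with 60.5% in 1 cell. In heart 3, Rsad2 was at 24.5 CPM in Comp-positive and 55.4 CPM in Comp-negative members. Cxcl10 was at 0, 0 and 620 CPM against 4.71, 11.5 and 156 CPM. Dio2 was held by 44 Comp-positive members. By heart it had 49.5, 131 and 61.4 CPM in Comp-positive and 11.8, 34.6 and 42.3 CPM in Comp-negative members, each a smaller fold than over the whole library. Top2a and Stmn1, genes of dividing cells, had 0 and 2.89 CPM in Comp-positive and 42.4 and 76.3 CPM in Comp-negative members of the whole library. Few cells carried them: 9 members held Top2a, with 97.4% of its UMIs in 5 cells, and 82.0% of Stmn1 UMIs lay in 5 cells. By heart, Top2a was at 0, 14.4 and 4.89 CPM in Comp-negative members. Per heart there were 10, 19 and 14 Comp-positive members.

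**Figure D4:**
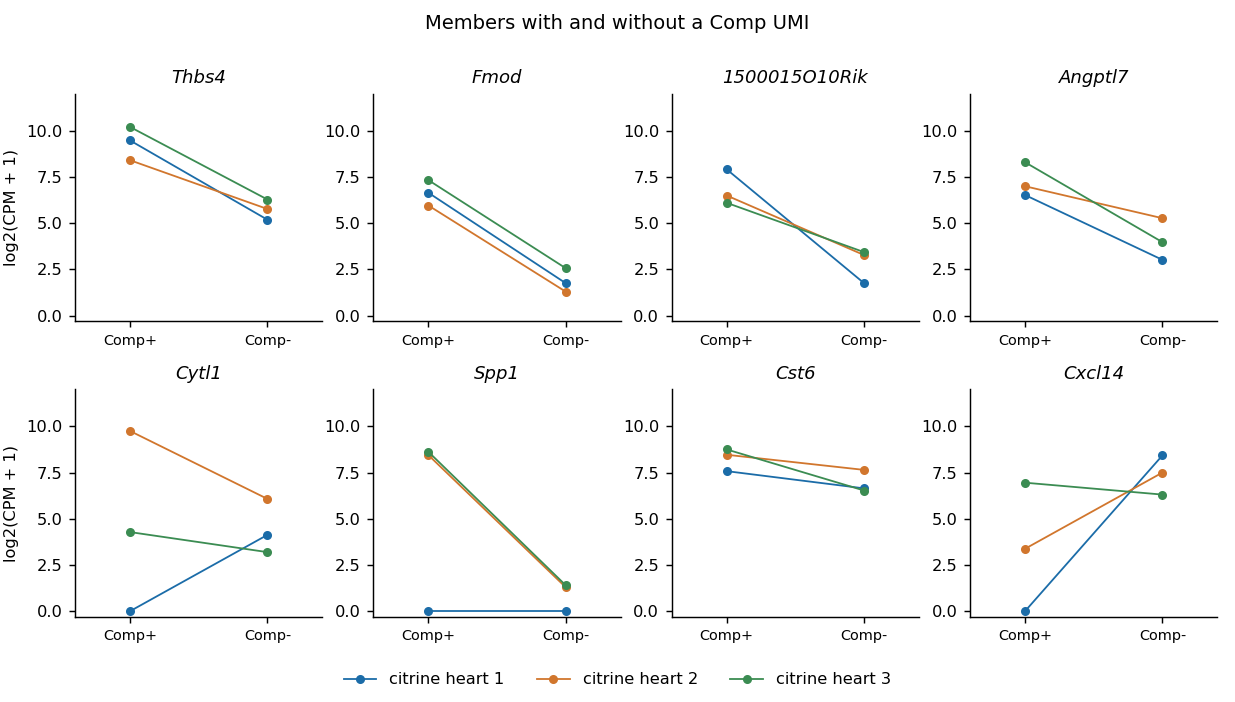
Levels as log2(CPM + 1) of 8 genes in Comp-positive (left) and Comp-negative (right) members of each citrine heart. Thbs4, Fmod, 1500015O10Rik and Angptl7 were higher in Comp-positive members of all 3 hearts, whereas Cytl1 and Spp1 were at 0 in Comp-positive members of heart 1.

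The same rule was then applied to the tdTomato library made 7 days after ligation. It selected 233 of 4263 cells (5.47%, 4.80 to 6.19) against 27 of 2786 (0.969%) in the undamaged library, and 2.26% (1.81 to 2.78) against 0.760% (0.451 to 1.20) at equal depth. With 1 library for each state, animals and libraries cannot be told apart from the injury, and no test was made. Of the selected cells after ligation, 20 held at least 2 mural markers, against 1 of 27. In the PDGFRa library, which mixes undamaged and ligated hearts, 2967 of 12567 cells passed (23.6%). Of 18 activation genes with at least 20 UMIs over both sums, 11 were over 2-fold higher after ligation (61.1%), against 7.68% of 8056 genes, with medians of 1.68 for the list and -0.23 for all genes on the log2 scale.

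The genes that separated the ligated state were not simply those that marked the uninjured members. Cthrc1 had 1729 CPM after ligation (exact 95% interval 1674 to 1786) and 73.3 CPM in undamaged members (35.1 to 135). Fn1 had 2161 CPM (2099 to 2224) and 117 CPM (67.0 to 190), and Lox 451 CPM (423 to 480) and 7.33 CPM (0.185 to 40.8). Intervals of these 3 genes did not meet. Postn, on which the cells were selected, had 5028 and 1985 CPM. Acta2 had 317 CPM (293 to 341) after ligation and 220 CPM (148 to 314) in undamaged members, and the intervals met, but 24 of the 30 undamaged UMIs came from 1 cell. Thbs4 had 667 CPM (633 to 703) and 425 CPM (323 to 549), and Col8a1 1430 and 982 CPM. Other genes were lower after ligation. Prg4 had 26.9 CPM (20.4 to 34.9) and 689 CPM (556 to 843), Cst6 137 CPM (122 to 154) and 432 CPM (329 to 557), Fmod 198 and 337 CPM, and Ly6a 208 and 579 CPM. For Fmod, 32 of the 46 undamaged UMIs came from 1 cell, so its direction rests on that cell. The intervals cover counting error only, and few of the 27 undamaged members held a UMI: 1 for Lox, 3 for Cthrc1, 5 for Acta2, 6 for Fmod, 7 for Fn1, 8 for Thbs4, 10 for Cst6 and 13 for Prg4.

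**Figure D5:**
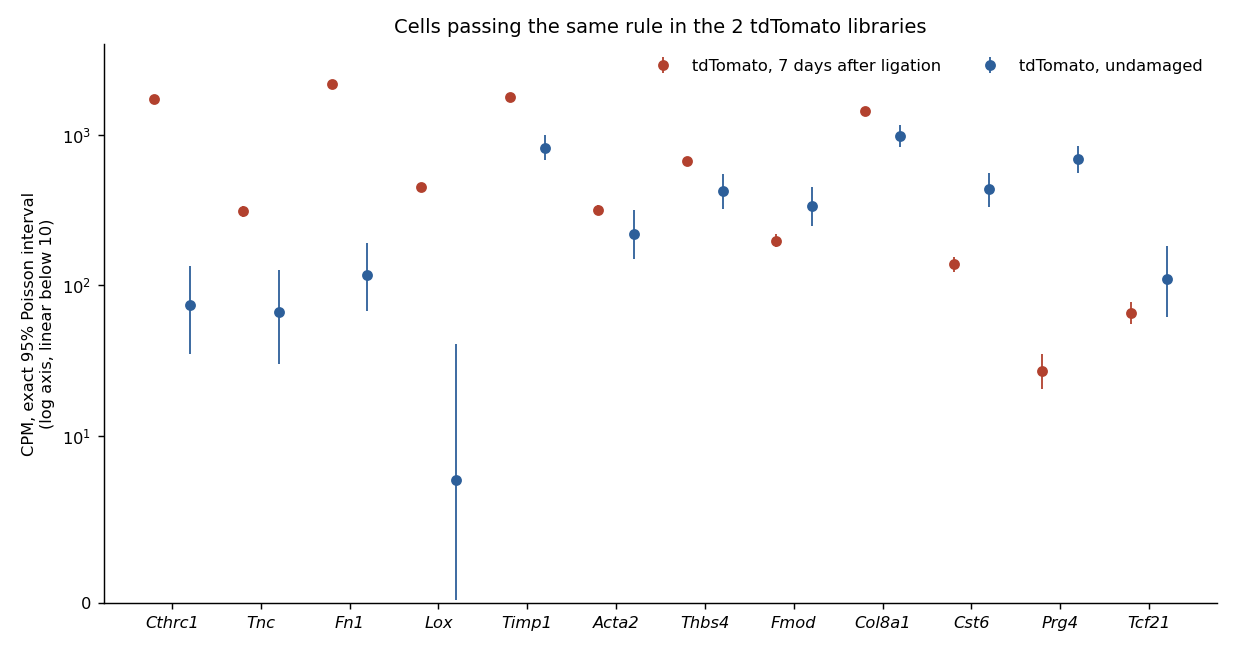
CPM, on a log axis that is linear below 10, of 12 genes in cells passing the rule 7 days after ligation (red, left of each pair) and in undamaged members (blue, right) of the tdTomato libraries, with exact 95% Poisson intervals. Cthrc1, Tnc, Fn1 and Lox were higher after ligation, and Prg4 and Cst6 lower.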

How the data were processed

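UMI counts per gene and barcode were measured by droplet sequencing in 4 libraries. Per the labels' protocols, the authors used the Chromium 3' kit v2 and a NextSeq 500 and aligned reads to a modified mm10 genome with Cell Ranger. Per the file headers, counts of the citrine and PDGFRa libraries were written by Cell Ranger 3.0.2. Seurat 2.1 is named in the submitters' processing notes, but the deposited counts are whole numbers and were used as deposited. All files share 28001 features.

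Cells were filtered by the rule given in the report. A citrine cell was assigned to a heart when it had at least 10 hashtag UMIs and 80% or more came from 1 hashtag, which held for 5474 cells (50.5%). No hashtag ties the hearts of the PDGFRa library to a condition, so that library stayed whole. UMIs were summed per heart and class and tested with edgeR 4.0.16 in R 4.3.3 (TMM, filterByExpr, quasi-likelihood F test with heart as a block, Benjamini-Hochberg adjustment over all genes tested). The members of a heart and its comparison cells come from the same animal, so the heart pairs them. The 11 genes of the rule and 3 reporter sequences stayed in library totals and out of the tests. SE is the absolute log2 fold change over the square root of F. The fits were tested on simulated counts. For tdTomato, CPM ratios were taken for genes with 20 UMIs or more, after adding 1 UMI to each sum, with exact Poisson intervals. Shares carry exact Clopper-Pearson 95% intervals. All intervals and limits cover counting error only. Thinned shares are means over 20 draws to 2000 UMIs per cell, and cells under 2000 UMIs were left out of all thinned results.

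Named genes were the 14 highest and 14 lowest called genes at 50 CPM or more in the higher class with the same direction in all 3 hearts and the tdTomato library (8 each way against Wif1-positive cells), plus a fixed set that includes Hic1, Pdgfra, Tcf21 and the TGF-beta ligands, and examples of 24 gene lists. Some genes that these rules name are not reported here. The members, lists and fixed genes were chosen with earlier results of these data known. Alternatives were DESeq2 1.42.0, its size factors, no filter, no block, each heart left out, depth matching and thinning, other comparison cells, other hashtag limits, mitochondrial and Cilp limits and the deepest cells left out. Further tools were pandas 2.3.3, matplotlib 3.10.9, scipy 1.17.1 and numpy 2.4.6 under Python 3.11.15. Gene names are those of the files, and 477 of 479 list genes have a feature there. Promoters came from RefSeq on GRCm38.p6, the assembly of mm10.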

Additional observations from a re-analysis of the deposited data

Results flagged for a closer look

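Lox was flagged because its difference between members and comparison cells ran in opposite directions in the undamaged libraries. The log2 ratio of members to comparison cells was -0.61 in the tdTomato library (7.33 and 22.3 CPM), while members were higher in each of the 3 citrine hearts (40.3, 110 and 41.2 CPM against 22.3, 26.4 and 31.6 CPM). A single Lox UMI in 27 members lies behind the tdTomato value, and its exact 95% interval as a ratio, 0.00828 to 1.86, spans 1. The difference between the libraries was not tested.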

How the results depend on the processing

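Of the alternatives to the comparison with Cilp- and Postn-negative cells, DESeq2 called 294 genes higher and 211 lower, a hashtag limit of 95% gave 114 and 104, a limit of 60% gave 743 and 551, and thinning to 2000 UMIs before the rule gave 36 and 90 of 7221 genes. Leaving out 1 heart gave 207 to 419 higher and 182 to 364 lower. In the fit without the replicate block the counts were 390 and 274, and against Wif1-positive cells 143 and 99. Matched on UMIs, 243 of the 477 higher and 201 of the 356 lower genes were called again, and 417 of 421 and 312 of 314 that could be tested kept their direction. Against Wif1-positive cells, DESeq2 called 72 genes higher, no filter on low counts gave 276 higher, thinning gave 11 higher and 4 lower of 247 genes, and leaving out 1 heart gave 16 to 118 higher (78 without heart 2) and 27 to 79 lower. In the tdTomato library, genes over 2-fold higher numbered 5961 after thinning, 1534 with a pseudocount of 0.5 and 594 at 100 UMIs or more, and genes over 2-fold lower 176 after thinning and 1311 with a pseudocount of 0.5. The share of cells passing the rule became 0.610% in tdTomato undamaged hearts with at least 4 Cilp UMIs. In citrine hearts it became 0.820% thinned, 2.65% without the top 5% of cells by UMIs and 2.44% with 4 Cilp UMIs. After ligation it became 2.26%, 2.96% and 3.75% under these settings and 6.20% at 5% mitochondrial UMIs or less, and in the PDGFRa library 7.23%, 21.1%, 19.0% and 24.6%. Lox reversed to -0.39 (edgeR adjusted p = 0.545) without the top 5% of cells, and Ly6a to 0.16 (edgeR adjusted p = 0.443) with comparison cells held to the Wif1 and Pi16 limits, an alternative chosen after seeing the data. For the named genes, 851 of their other values against comparison cells kept direction and call, 60 lost the call and 1 gained it. Against Wif1-positive cells the numbers were 180, 41 and 2. The causes were not tested. The 18 Wif1-positive cells and the 136513 UMIs of tdTomato members set the depth limits.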
